A study of Mus musculus with 4 samples.

Results

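The 8 genes described here encode signals that maintain and attract macrophages, and the receptors that read them: the ligands Csf1, Il34, Cx3cl1 and Cxcl12, and the receptors Csf1r, Cx3cr1, Cxcr4 and Csf2ra. They were chosen by name, as 8 of the 32285 genes in the files. The question was which islet cells carried RNA of the 4 ligands and which macrophages carried RNA of the 4 receptors, in 4 libraries of single islet cells from mice.

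The receptor tyrosine kinase CSF1R controls the survival and growth of tissue macrophages, and has a pair of ligands: CSF1, also called M-CSF, and interleukin-34. CX3CL1, or fractalkine, is a chemokine made as a membrane protein that can be shed, and its receptor CX3CR1 is carried by many resident macrophages. CXCL12 is a chemokine of stromal and vascular cells that retains CXCR4-bearing blood cells in tissues, and Csf2ra encodes the ligand-binding alpha chain of the receptor for GM-CSF. Macrophages of the islet lie against capillaries and endocrine cells, so each of these cells is a possible source of the ligands.

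Each library held 300 hand-picked islets pooled from 2 to 3 female mice on a C57b6/J background, profiled with 10x Chromium droplets. The mice were CCR2-DTR+/- or WT (CCR2-DTR-/-), and were 1 or 6 months old. All mice, WT included, had received diphtheria toxin in 4 injections 48 hours apart from postnatal day 2, and were weaned at day 21. The CCR2-DTR transgene places the toxin's receptor on cells that express the monocyte chemokine receptor CCR2. There was 1 library for each of the 4 groups, so there was no spread between replicates, genotype or age cannot be told apart from the library, and no test was run. Values are given in the order WT 1 month, CCR2-DTR 1 month, WT 6 months and CCR2-DTR 6 months unless stated.

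The libraries held 10433, 12444, 5089 and 7113 barcodes, with 121292320, 96744006, 60315217 and 81917159 UMIs (unique molecular identifiers, each marking 1 captured RNA molecule). After filtering and removal of likely doublets, 8726, 8600, 3638 and 4256 cells remained, at medians of 8848 to 14745 UMIs. Each pair of libraries shared 6 to 34 barcodes, at most 0.422% of the smaller library. The labels were checked on the gene that the transgene is built on: in beta, alpha, delta and endothelial cells together, Ccr2 gave 1 and 1 UMI in the WT libraries against 132 and 113 in the CCR2-DTR libraries at 1 and 6 months.

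Cells were grouped into classes by clustering, named from marker genes, so that a name means cells like that type. The macrophage class held 143, 148, 94 and 158 cells at medians of 4644, 5327, 8119 and 7456 UMIs, and also took in dendritic cells. The endothelial class held 628, 625, 315 and 360 cells, and the class of pericytes and smooth muscle cells, which wrap vessels, held 198, 282, 53 and 66. Fibroblasts numbered 62, 126, 5 and 36, so the WT 6-month value for them rests on 5 cells. A level is the gene's UMIs summed over a class, scaled to a class total of 1e6 UMIs (CPM), with an exact Poisson interval that covers counting error only. Dividing by the class total takes out the number of cells, not their total RNA.

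Promoter sequences, from 250 bases before to 50 bases after the annotated start, were matched for 6 of the 8 genes in RefSeq (GRCm38.p6). The pair Cxcl12 and Cxcr4 is shown because this ligand differed between the ages in endothelial cells, and its receptor in macrophages. Cxcl12 is read from the plus strand at chr6:117168285-117168584 and Cxcr4 from the minus strand at chr1:128592250-128592549, each 5′ to 3′.
Cxcl12: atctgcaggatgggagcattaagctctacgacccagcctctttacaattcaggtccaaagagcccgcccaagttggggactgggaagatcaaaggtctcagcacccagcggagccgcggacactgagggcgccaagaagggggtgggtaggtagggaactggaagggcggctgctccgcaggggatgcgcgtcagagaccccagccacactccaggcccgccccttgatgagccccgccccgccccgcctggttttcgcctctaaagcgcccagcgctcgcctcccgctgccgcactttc
Cxcr4: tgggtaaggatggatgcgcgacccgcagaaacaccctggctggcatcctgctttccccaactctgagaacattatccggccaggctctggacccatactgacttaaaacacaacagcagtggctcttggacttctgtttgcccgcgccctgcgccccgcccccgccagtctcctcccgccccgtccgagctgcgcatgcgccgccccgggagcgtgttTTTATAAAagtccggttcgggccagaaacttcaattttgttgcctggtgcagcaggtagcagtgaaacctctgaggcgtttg
Capitals mark matches to TATAAA, the core of the TATA box, searched on both strands. Cxcr4 holds 2 matches, 1 on each strand, which overlap, and the Cxcl12 window holds 0; 13.6% of the 32851 promoters in the table hold at least 1. GAGGAA, a core bound by the myeloid factor PU.1, was searched the same way and is in neither of the pair. That hexamer had 2 matches each in the Cx3cl1 and Csf2ra windows and 0 in those of Csf1 and Cx3cr1, and 28.3% of all promoters hold at least 1. A match describes these letters only.

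In the GENCODE vM21 annotation on GRCm38, which was used for positions only, Csf1 (ENSMUSG00000014599) lies on chromosome 3 at 107741048 to 107760469 and Il34 (ENSMUSG00000031750) on chromosome 8 at 110741829 to 110805924. Cx3cl1 (ENSMUSG00000031778) also lies on chromosome 8, at 94772009 to 94782427, and Cxcl12 (ENSMUSG00000061353) on chromosome 6 at 117168535 to 117181367. Of the receptors, Csf1r (ENSMUSG00000024621) lies on chromosome 18 and Cx3cr1 (ENSMUSG00000052336) on chromosome 9 at 119901616 to 120069879. Cxcr4 (ENSMUSG00000045382) lies on chromosome 1 at 128588199 to 128592293, and Csf2ra (ENSMUSG00000059326) on chromosome 19 at 61223957 to 61228429.

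**Figure D1:**
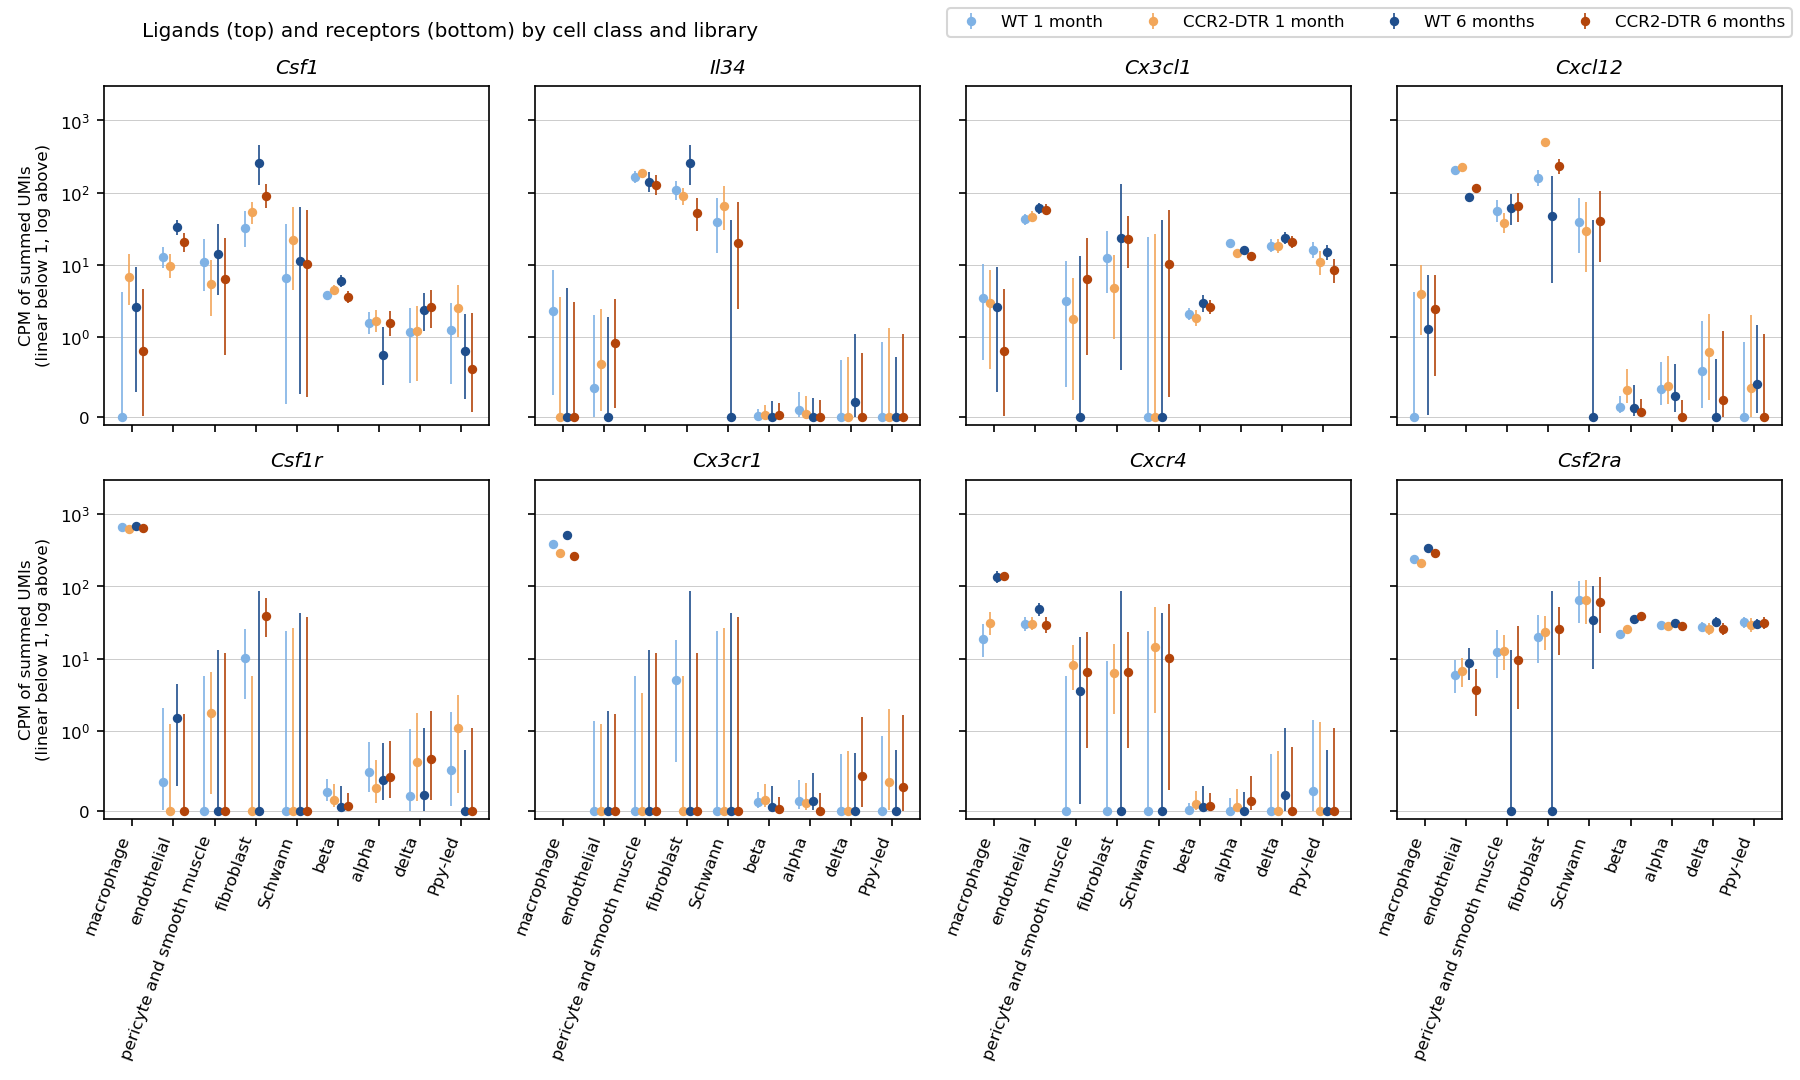
Level of each ligand (top row) and receptor (bottom row) in 9 cell classes, in CPM on an axis that is linear below 1 and logarithmic above. Each point is 1 library with its 95% Poisson interval, and colours give genotype and age. Il34 sits in pericytes and fibroblasts, Cx3cl1 and Cxcl12 are high in endothelial cells, and Csf1r and Cx3cr1 stand out in macrophages.

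Il34 RNA was carried mainly by the perivascular cells, and also by fibroblasts. In pericytes and smooth muscle cells its level was 166, 185, 142 and 129 CPM, from 106, 206, 40 and 40 UMIs, and 39.4 to 52.5% of these cells held a UMI. Among classes with at least 10 cells in every library, this class was the highest in 4 of 4. Its range did not overlap that of the class next in this order, Schwann cells, at 39.3, 65.6, 0 and 20.4 CPM from at most 9 UMIs. Fibroblasts reached 109, 89.8, 258 and 52.1 CPM, the WT 6-month value from 11 UMIs in 5 cells, and stood outside the order because of that library. Endothelial cells were at 0.927 CPM or less, and in beta cells, at median depths of 14318 to 28987 UMIs, at most 0.0852% of cells held a UMI.

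Within the perivascular class, 3 sub-clusters shared the Il34 signal. Cells led by Kcnj8, a pericyte potassium channel gene, had 297, 263, 150 and 167 CPM. Those led by Steap4 had 224, 224, 183 and 168 CPM, and those led by Acta2, smooth muscle actin, 191, 243, 113 and 126 CPM. The Steap4-led and Kcnj8-led values rest on 4 to 80 UMIs a library. Of all Il34 UMIs in kept cells (174, 288, 56 and 73), pericytes and smooth muscle held 60.9, 71.5, 71.4 and 54.8%, and fibroblasts held 24.7, 19.8, 19.6 and 21.9%. Macrophages held 2 UMIs in WT at 1 month and 0 in the other 3 libraries.

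Ratios between libraries were taken within a class for 4 comparisons: CCR2-DTR over WT at 1 month, the same at 6 months, and 6 months over 1 month in each genotype. A ratio is called higher or lower here when it is at least 1.5-fold either way, its exact 95% interval excludes 1 and the gene has at least 20 UMIs over both libraries. Il34 in the perivascular class was not called in any of the 4, at 1.11 (0.877 to 1.42), 0.909 (0.571 to 1.45), 0.858 (0.581 to 1.24) and 0.699 (0.485 to 0.985). Of the 9 ratios of the 8 genes that could be measured in this class 0 were called, against 6.16, 7.75, 9.21 and 9.1% of all genes measured there in the 4 comparisons. With likely doublets kept, the CCR2-DTR 6-month library was called lower than WT at 6 months and than CCR2-DTR at 1 month, at 0.623 and 0.530.

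Csf1 was spread over more classes than Il34. Among classes with at least 10 cells in every library, endothelial cells led in 3 of 4, at 12.9, 9.74, 33.2 and 20.9 CPM from 35, 29, 65 and 45 UMIs. The range overlapped that of Schwann cells, at 6.56 to 21.9 CPM on at most 3 UMIs a library, and that of pericytes, at 5.39 to 14.2 CPM. Fibroblasts were higher than endothelial cells in 4 of 4 libraries, at 32.9, 53.6, 258 and 91.1 CPM, again with 5 cells and 11 UMIs in WT at 6 months. Within the stroma, cells led by Itih5 carried 97.4, 55.2, 184 and 103 CPM, on 9, 14, 9 and 22 UMIs. In WT at 6 months they were 3 cells, and all 9 UMIs came from 1 of them.

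Beta cells had a low Csf1 level, 3.81, 4.48, 6.06 and 3.58 CPM. Their total is rich in insulin RNA, which lowers the CPM of other genes: Ins2 alone stood at 352808, 303625, 339381 and 342746 CPM. Beta cells were 35.1, 28.5, 16.8 and 27.6% of kept cells. Their median depths of 14318 to 28987 UMIs were above the endothelial medians of 3128 to 5712. They held 53.0, 43.6, 40.8 and 40.7% of all Csf1 UMIs (394, 360, 262 and 280). Endothelial cells held 8.9, 8.1, 24.8 and 16.1%, and fibroblasts 3.3, 9.4, 4.2 and 10.0%. These shares move with how many cells of each class were captured and with the UMIs per cell. Macrophages themselves had 6.84 CPM or less, from at most 7 UMIs.

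**Figure D2:**
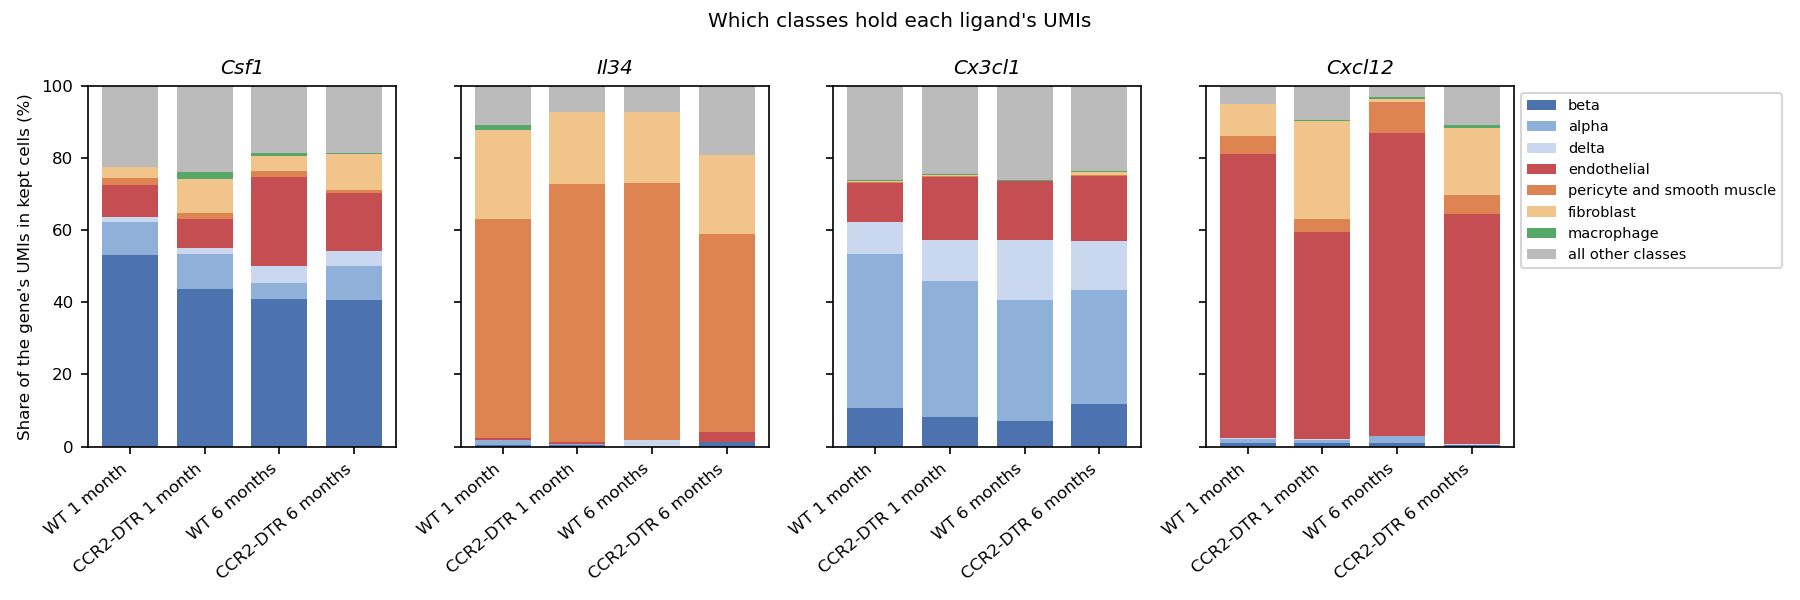
Share of each ligand's UMIs held by each cell class (stacked bars, percent of the UMIs in kept cells, 1 bar per library). Pericytes hold most of Il34 in each library, endothelial cells most of Cxcl12, and beta cells 40.7 to 53.0% of Csf1.

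Endothelial Csf1 was higher at 6 months than at 1 month in both genotypes, 2.57-fold in WT (1.68 to 4.00) and 2.14-fold in CCR2-DTR (1.31 to 3.54). With cells thinned to 2000 UMIs the CCR2-DTR ratio was 1.11 and not called. At 6 months it was lower in CCR2-DTR than in WT, at 0.628 (0.420 to 0.933), and the 1-month ratio of 0.755 was not called. Over the 4 comparisons of this class, 7 of the 20 measured ratios of the 8 genes were called, 0 of 5, 2 of 5, 3 of 5 and 2 of 5. The share of all genes called was 4.45, 5.13, 9.79 and 12.1%. The genes in these counts are Csf1, Cxcl12 and Cxcr4, and the comparisons at each age share libraries.

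The endothelial cells of the ages differed in their sub-clusters, and so did the 1-month libraries from each other. Cells led by Fam174b made up 4.30 and 4.00% of endothelial cells at 1 month in WT and CCR2-DTR, against 50.5 and 54.7% at 6 months. Cells led by Igfbp5 made up 3.18 and 2.08% against 20.6 and 10.6%. Cells led by Aplnr made up 28.0 and 20.6% against 3.17 and 10.8%. Hapln1-led cells were frequent in WT at 1 month only, at 30.6 and 3.52% against 1.90 and 3.06%. Cells led by Iapp, a beta cell hormone, were most frequent in CCR2-DTR at 1 month, at 8.92 and 36.3% against 13.7 and 12.8%. The Igfbp5-led cells had the highest Csf1 at 6 months among sub-clusters with at least 10 cells, 63.5 and 59.0 CPM from 29 and 13 UMIs, and 1 UMI in each 1-month library. The Fam174b-led cells had 1 UMI in each 1-month library, and 23.1 and 14.7 CPM at 6 months. Without sub-clusters led by genes of other cells, the age ratio was 2.26 (1.45 to 3.61) in WT and 1.64 (0.964 to 2.87) in CCR2-DTR, so the second was no longer called.

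In beta cells Csf1 was called higher in WT at 6 months than at 1 month, at 1.59 (1.25 to 2.02), and lower in CCR2-DTR than in WT at 6 months, at 0.591 (0.450 to 0.777). The ratio with age in CCR2-DTR was 0.800 (0.623 to 1.03) and the genotype ratio at 1 month 1.17 (0.949 to 1.45), and neither was called. Beta cells held 4 called ratios of 12 measured over the 4 comparisons, 0 of 3, 1 of 3, 2 of 3 and 1 of 3, beside 4.1, 3.19, 10.1 and 10.9% of all genes. With every cell thinned to 2000 UMIs, which leaves few Csf1 UMIs in a beta cell, the WT age ratio turned to 0.432 (0.0495 to 1.74) and was not called. In alpha cells Csf1 was lower in WT at 6 months, at 0.494 (0.234 to 0.971) from 12 against 36 UMIs, 1 of 3 ratios measured beside 9.59% of all genes.

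Cx3cl1 was an endothelial and endocrine transcript. Endothelial cells had 42.7, 46.7, 60.8 and 58.4 CPM from 116 to 139 UMIs a library, the highest class in 4 of 4. The next class, the somatostatin-producing delta cells, had 18.4, 18.4, 23.9 and 20.9 CPM, and its range did not overlap the endothelial one. Delta and alpha cells overlapped each other, alpha cells being at 20.2, 14.6, 16.1 and 13.4 CPM. Beta cells had 2.11, 1.85, 2.94 and 2.64 CPM, below alpha and delta cells in 4 of 4 libraries. Insulin RNA fills much of the beta cell total and lowers these values, as given for Csf1. Its part in the difference was not tested.

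Alpha cells were 27.9, 28.5, 19.8 and 20.5% of kept cells. They held the largest share of Cx3cl1 UMIs among the named classes: 42.7, 37.8, 33.7 and 31.5% of 1075, 797, 731 and 704. Endothelial cells held 10.8, 17.4, 16.3 and 17.9% and delta cells 8.8, 11.3, 16.6 and 13.6%. Within the endothelium, the arterial cells, led by Fbln5, had 53.2, 50.5, 47.1 and 90.2 CPM, and the Fam174b-led cells 79.6, 32.0, 62.5 and 60.2 CPM. The endothelial age ratios were 1.42 (1.09 to 1.85) in WT and 1.25 in CCR2-DTR, and neither was called. A cluster led by Ppy, pancreatic polypeptide, had 16.1, 10.9, 15 and 8.45 CPM and was called lower in CCR2-DTR than in WT at 6 months, at 0.563 (0.351 to 0.882), 1 of 2 measured ratios beside 3.66% of all genes.

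Cxcl12 was mainly an endothelial transcript. Endothelial cells had 209, 227, 86.3 and 114 CPM, from 567, 677, 169 and 247 UMIs, and led the ordered classes in 4 of 4 libraries. The 1-month values lie above the 6-month values in both genotypes. Pericytes and smooth muscle, next in order, had 56.4, 38.6, 60.5 and 64.7 CPM and did not overlap the endothelial values. Fibroblasts, which stood outside the order, were above endothelial cells in both CCR2-DTR libraries and below them in both WT libraries. Of all Cxcl12 UMIs (721, 1178, 201 and 387), endothelial cells held 78.6, 57.5, 84.1 and 63.8%. Macrophages had 3.91 CPM or less and beta cells 0.343 CPM or less.

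The endothelial Cxcl12 level at 6 months was 0.413 of that at 1 month in WT (0.346 to 0.492) and 0.504 in CCR2-DTR (0.434 to 0.583), both called lower. The genotype ratios were 1.09 at 1 month and 1.33 (1.09 to 1.62) at 6 months, and neither was called. Arterial cells had the highest level in 3 of 4 libraries, at 659, 552, 565 and 778 CPM, with 248, 262, 48 and 69 UMIs. They had no uniform direction with age, and made up 12.4, 13.8, 4.44 and 5% of endothelial cells. Without them the age ratios were 0.474 (0.381 to 0.586) and 0.519 (0.433 to 0.620), both still called.

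Within sub-clusters the Cxcl12 level differed between ages in some and not in others. Fam174b-led cells had 191 and 392 CPM at 1 month, from 24 and 49 UMIs, against 43.3 and 69.0 CPM at 6 months, from 45 and 94. Igfbp5-led cells had 264 and 193 CPM against 41.6 and 22.7 CPM, from 5 to 19 UMIs. Aplnr-led cells had 160 and 246 CPM at 1 month and 178 and 288 CPM at 6 months, from 8 to 141 UMIs. A group of 6 Hapln1-led cells in WT at 6 months had 28 UMIs, or 833 CPM.

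**Figure D3:**
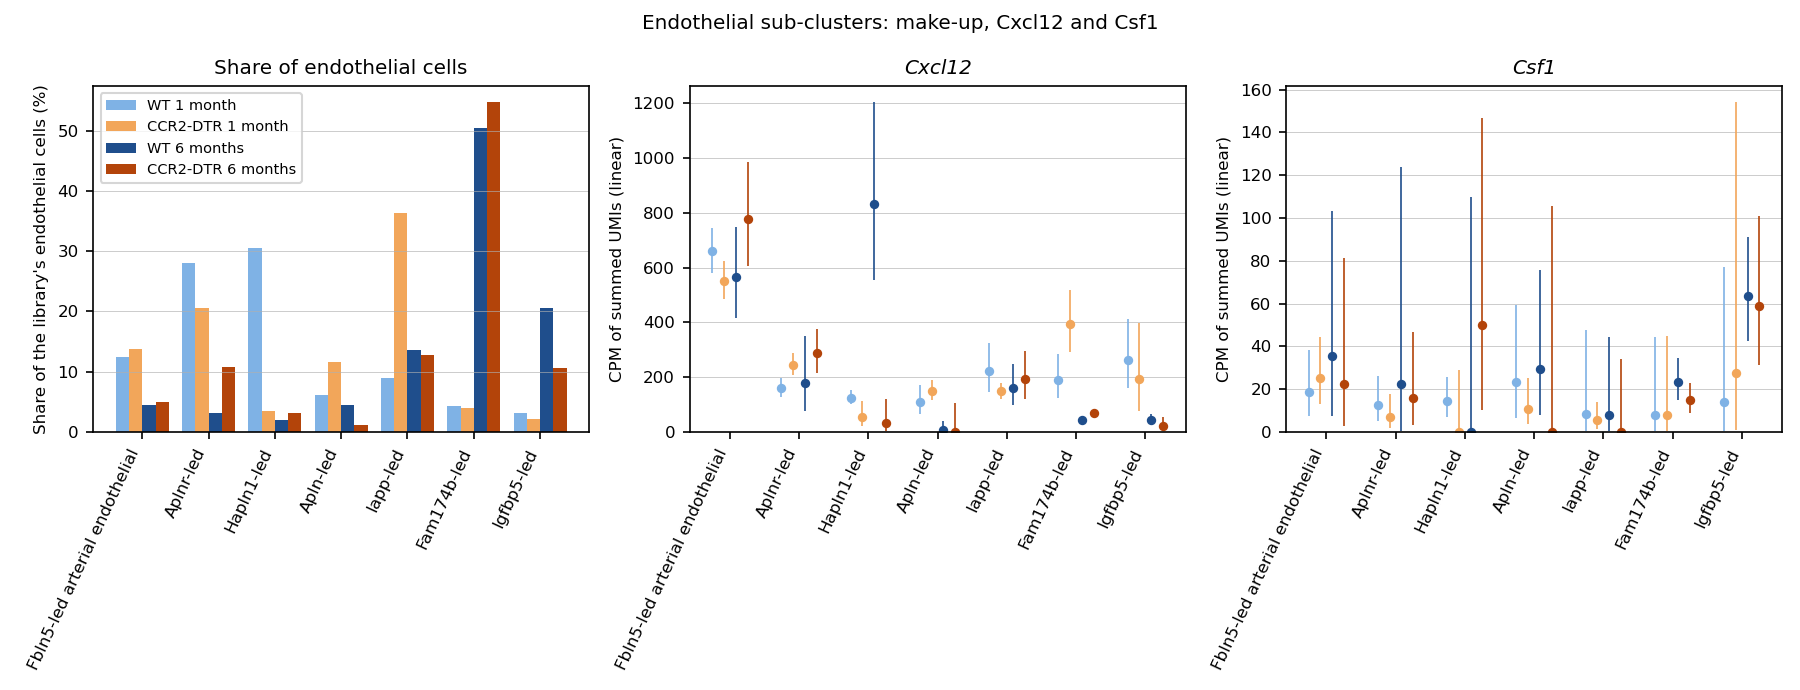
Left, share of each library's endothelial cells in each sub-cluster (bars, percent). Middle and right, Cxcl12 and Csf1 in the same sub-clusters in CPM on linear axes, 1 point per library with its 95% Poisson interval. The Fam174b-led sub-cluster holds 50.5 and 54.7% of endothelial cells at 6 months, and arterial cells have the highest Cxcl12 in 3 of the 4 libraries.

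In fibroblasts Cxcl12 stood at 162, 504, 46.9 and 234 CPM, the WT 6-month value from 2 UMIs. The CCR2-DTR 1-month library was 3.11 times the WT 1-month library (2.37 to 4.14), 1 called of 4 measured ratios beside 8.57% of all genes. Of its 320 UMIs, 125 came from 7 cells of a C3-led sub-cluster found in that library, at 2581 CPM. Without those cells the ratio was 2.05 (1.54 to 2.77) and was still called. The age ratios were not taken, since the 6-month libraries held too few fibroblasts.

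Of the receptors, Csf1r marked the macrophage class at a steady level. Macrophages had 665, 633, 689 and 637 CPM from 573, 648, 532 and 768 UMIs, and 88.1, 87.2, 87.2 and 80.4% of cells held a UMI. They held 91.7, 93.6, 96.7 and 93.8% of all Csf1r UMIs. The other ordered classes were at 1.80 CPM or less, and 0.163 to 0.359% of beta cells held a UMI at median depths of 14318 to 28987 UMIs. The 4 ratios between libraries were 0.952, 0.924, 1.04 and 1.01, and 0 were called.

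Sub-clusters of the macrophage class were formed without the 8 genes. A Ccl4-led and a Trem2-led sub-cluster both scored highest for the markers of C1q-bearing islet macrophages, but did not meet the naming rule and stayed unnamed. In the Ccl4-led cells a marker of another type and 0 of the list's own were among the 10 leading genes, and in the Trem2-led cells under 3 of its markers stood out. Together these Ccl4/Trem2-led cells numbered 90, 64, 62 and 89. Of them 68, 14, 47 and 81 were Ccl4-led and 22, 50, 15 and 8 Trem2-led. The mix of the 2 thus differed between libraries, and ratios in the pooled cells include that difference. A Cbr2-led sub-cluster matched the stromal macrophage marked by the mannose receptor Mrc1, and held 12, 30, 4 and 9 cells. Conventional dendritic cells were found as an S100a4-led type 2 sub-cluster (5, 10, 6 and 30 cells) and an Xcr1-led type 1 sub-cluster (4, 6, 0 and 5). The Ccl4-led cells made up 47.6, 9.46, 50 and 51.3% of the class, so the CCR2-DTR 1-month library differed in make-up from the other 3. Rbp4-led and Ins1-led sub-clusters carried endocrine transcripts beside macrophage ones.

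Csf1r was highest in the Mrc1-like macrophages in 3 of 4 libraries, at 1489, 1233, 1013 and 977 CPM from 60, 153, 27 and 49 UMIs. The exception was CCR2-DTR at 1 month, where 14 Ccl4-led cells had 1279 CPM. Ccl4/Trem2-led cells had 994, 940, 813 and 822 CPM, lower than the Mrc1-like cells in 4 of 4 libraries, by a ratio of 1.5, 1.31, 1.25 and 1.19. At 6 months the Mrc1-like intervals, 668 to 1474 in WT and 723 to 1292 in CCR2-DTR, took in the Ccl4/Trem2-led levels. Type 2 dendritic cells had 172, 320, 196 and 302 CPM, and type 1 dendritic cells 0, 126 and 55.8 CPM in the 3 libraries that held them. Each Csf1r ratio between libraries in Ccl4/Trem2-led cells, from 0.817 to 1.01, was within 1.5-fold.

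**Figure D4:**
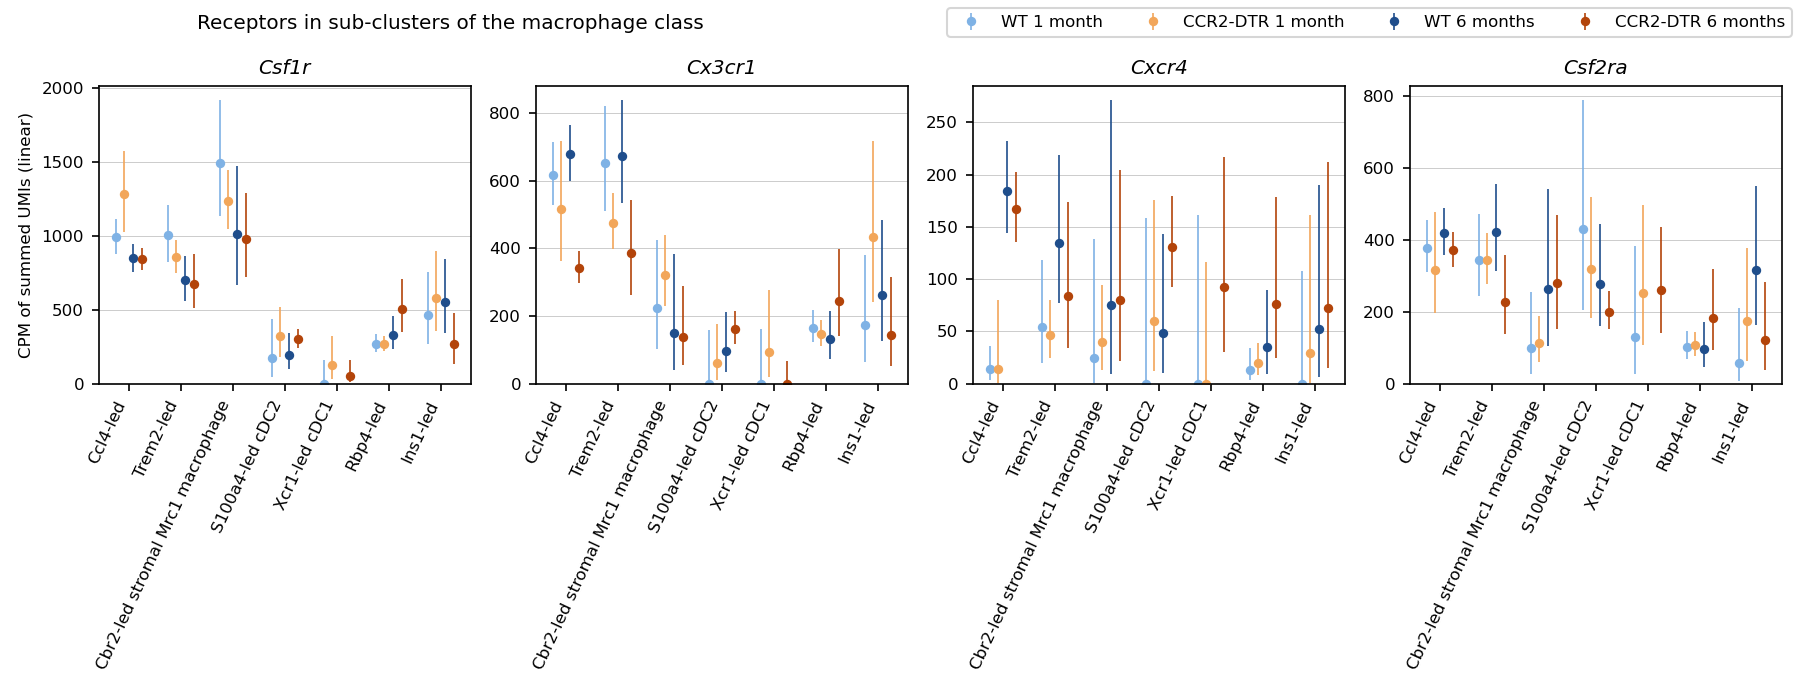
Levels of the 4 receptors in sub-clusters of the macrophage class, in CPM on linear axes, 1 point per library with its 95% Poisson interval. Csf1r is highest in the Cbr2-led stromal Mrc1 cells in 3 of 4 libraries, Cx3cr1 in the Ccl4-led and Trem2-led cells, and Cxcr4 in the Ccl4-led cells stands at 14 and 14.4 CPM at 1 month against 184 and 167 at 6 months.

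Cx3cr1 was read mainly in this class, which held 96.5, 95.8, 99.0 and 97.2% of its UMIs. The macrophage level was 385, 293, 516 and 263 CPM from 332, 300, 398 and 317 UMIs, so that each CCR2-DTR library lay below the WT library of its age. Endothelial cells had 0 UMIs in each library, and at most 0.204% of beta cells held a UMI. Its sub-cluster pattern was the opposite of that of Csf1r. Ccl4/Trem2-led cells had 626, 485, 677 and 347 CPM, and Mrc1-like macrophages 223, 322, 150 and 140 CPM, lower in 4 of 4 libraries. The Mrc1-like values rest on 9, 40, 4 and 7 UMIs in 2, 14, 2 and 4 cells.

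At 6 months macrophage Cx3cr1 in CCR2-DTR was 0.510 of that in WT (0.438 to 0.592), called lower. This was 1 of 4 receptors measured, beside 9.29% of all genes called in either direction and 3.5% called lower. At 1 month the ratio was 0.761 (0.649 to 0.892) and not called, 0 of 4 receptors beside 7.55% of all genes, and with cells thinned to 2000 UMIs it was 0.558 (0.424 to 0.732) and called. In Ccl4/Trem2-led cells alone the ratios were 0.512 (0.433 to 0.606) at 6 months and 0.775 (0.633 to 0.946) at 1 month, so the 6-month value is as large without the dendritic and Mrc1-like cells. Both sub-clusters shared the direction at 6 months: 678 against 342 CPM in Ccl4-led cells and 673 against 385 CPM in Trem2-led cells. The age ratios, 1.34 in WT and 0.896 in CCR2-DTR, were not called.

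Immediate-early and heat-shock genes, which respond to cell dissociation, moved with that comparison. The summed level of 12 such genes in Ccl4/Trem2-led cells was 4556, 3243, 4559 and 6216 CPM, and in the whole class 3778, 3217, 3935 and 5934 CPM, with none of the 12 at 0. Their part in the Cx3cr1 result was not tested. Of the 7 monocyte markers, 6 or 7 were detected in the class, at a summed 189, 150, 387 and 304 CPM, with Ace at 0 in WT at 1 month and CCR2-DTR at 6 months and Hp at 0 in CCR2-DTR at 1 month. The 8 beta cell markers summed to 71421, 99004, 62885 and 38011 CPM in the class and to 24326, 52810, 33556 and 36537 CPM in Ccl4/Trem2-led cells. Barcodes above 15% mitochondrial UMIs, a sign of damaged cells, were 9.37, 18.4, 12.2 and 23.9% of each library. Their part in the result was not tested either.

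Cxcr4 was the receptor that differed most between ages. Macrophages had 18.6, 31.3, 135 and 138 CPM from 16, 32, 104 and 166 UMIs, and the share of cells with a UMI was 7.69, 18.2, 45.7 and 51.9%. The 1-month and 6-month libraries did not overlap. With each cell thinned to 2000 UMIs the shares were 3.05, 6.29, 20.5 and 28.2%, of 131, 143, 83 and 149 cells. At most 0.171% of beta cells held a UMI.

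The ratio of 6 months to 1 month was 7.26 (4.27 to 13.2) in WT and 4.40 (3.00 to 6.64) in CCR2-DTR, both called higher. It was 1 of 4 receptors called in each of these comparisons, beside 10.9 and 19.1% of all genes in either direction and 4.39 and 8.21% called higher. Ccl4/Trem2-led cells had 25.2, 40.1, 173 and 157 CPM, and ratios of 6.85 (3.55 to 14.8) and 3.91 (2.23 to 7.38). In Ccl4-led cells the level was 14, 14.4, 184 and 167 CPM from 4, 1, 72 and 102 UMIs. The pooled levels lay above these at 1 month and below them at 6 months, so Trem2-led cells differed less between the ages. In CCR2-DTR the pooled cells went from 14 Ccl4-led and 50 Trem2-led to 81 and 8. The part of this mix in the pooled ratios was not tested. Mrc1-like cells had 24.8, 40.3, 75 and 79.8 CPM on at most 5 UMIs. The summed stress genes given above were higher with age in CCR2-DTR, from 3217 to 5934 CPM over the class. In WT they were nearly level, at 3778 and 3935 CPM over the class and 4556 and 4559 CPM in Ccl4/Trem2-led cells. Their part in the Cxcr4 result was not tested. Genotype ratios were 1.68 (0.897 to 3.29) at 1 month and 1.02 at 6 months, and were not called.

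Cxcr4 was not a macrophage transcript alone. Endothelial cells had 30.6, 30.6, 48.0 and 29.7 CPM from 83, 91, 94 and 64 UMIs, and led the ordered classes in WT at 1 month, macrophages leading in the other 3. In CCR2-DTR at 1 month the levels of both classes, 31.3 and 30.6 CPM, lay within counting error of each other. Within the endothelium, cells led by Apln, a tip-cell gene, had 110, 53.7 and 141 CPM in the first 3 libraries from 19 to 25 UMIs, and 3 UMIs in 1 of 4 cells in CCR2-DTR at 6 months. Aplnr-led cells had 7.26, 6.97 and 5.33 CPM from 1 to 4 UMIs, and 0 UMIs in 10 cells in WT at 6 months, which allows up to 66.7 CPM. Endothelial Cxcr4 was called higher with age in WT, at 1.57 (1.16 to 2.14), and lower in CCR2-DTR than in WT at 6 months, at 0.618 (0.442 to 0.858). The age ratio in CCR2-DTR was 0.971 (0.694 to 1.35). The WT age call ended under 4 of 11 alternatives, with a range of 1.46 to 2.05.

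The share of Cxcr4 UMIs moved between classes. Of 118, 169, 212 and 302 UMIs in kept cells, endothelial cells held 70.3, 53.8, 44.3 and 21.2% and macrophages 13.6, 18.9, 49.1 and 55%. In CCR2-DTR at 6 months 69 B cells held a further 50 UMIs, 16.6% of the total, and 47.8% of them had a UMI. The other libraries held 8, 23 and 6 B cells.

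Csf2ra was highest in macrophages and read at a lower level in the endocrine classes. Macrophages had 237, 213, 343 and 290 CPM, and led in 4 of 4 libraries. A low-UMI cluster led by Tsix had 71.3, 124, 131 and 136 CPM, which did not overlap. Beta cells had 22.3, 26.2, 36.0 and 39.4 CPM, alpha cells 28.4 to 31.5 and delta cells 25.7 to 32.5, against 3.71 to 8.69 in endothelial cells. Of the Csf2ra UMIs (2938, 2485, 2271 and 2903), beta cells held 41.6, 36.9, 28.0 and 43.2%, and macrophages 6.9, 8.8, 11.7 and 12.1%.

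Within the macrophage class Csf2ra was, like Cx3cr1, higher in Ccl4/Trem2-led than in Mrc1-like cells in 4 of 4 libraries. The ratios of Mrc1-like to Ccl4/Trem2-led were 0.269, 0.333, 0.625 and 0.789. The Mrc1-like values in WT rest on 4 UMIs at 1 month and on 7 UMIs from 1 of 4 cells at 6 months. The latter, 263 CPM (106 to 541), lay within counting error of the Ccl4/Trem2-led level. Ccl4/Trem2-led cells had 368, 338, 420 and 354 CPM. Type 2 dendritic cells had 429, 320, 277 and 199 CPM, from 10 to 58 UMIs. The age ratios in the class, 1.45 in WT and 1.36 in CCR2-DTR, were not called. In beta cells Csf2ra was called higher at 6 months in both genotypes, at 1.62 (1.47 to 1.78) and 1.51 (1.38 to 1.64), and the second call ended under 4 of 9 alternatives, with a range of 1.29 to 1.61.

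**Figure D5:**
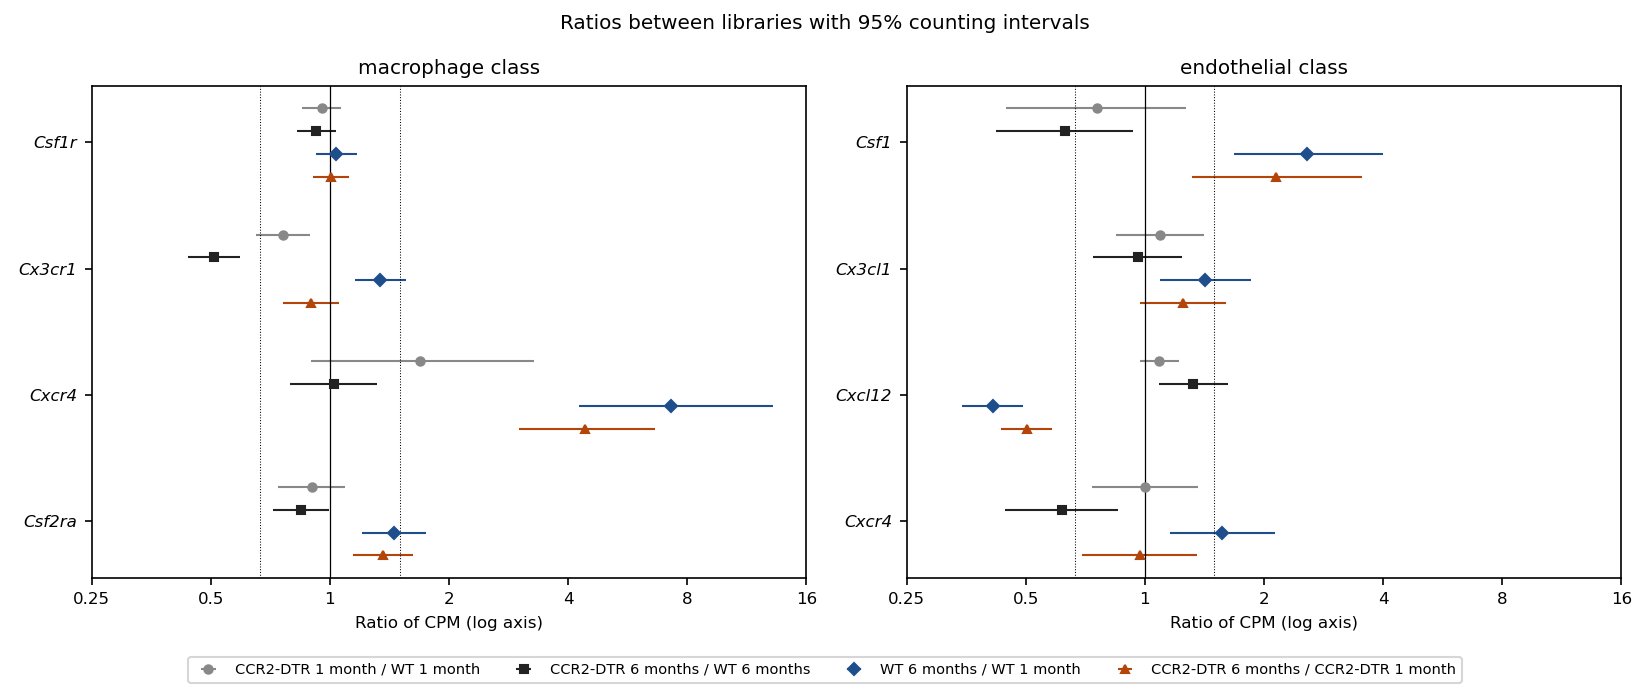
Ratios of CPM between libraries for the receptors in the macrophage class (left) and for 4 genes in the endothelial class (right), on a log axis, with exact 95% counting intervals. Dotted lines mark 1.5-fold either way. Macrophage Cxcr4 lies to the right in both age comparisons, Cx3cr1 to the left at 6 months, and endothelial Cxcl12 and Csf1 on opposite sides of 1 with age.

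Most Ccl4/Trem2-led cells held UMIs of more than 1 receptor. A UMI of both Csf1r and Cx3cr1 was seen in 80.0, 87.5, 93.5 and 82.0% of them, and of both Csf1r and Cxcr4 in 7.78, 21.9, 56.5 and 64.0%. Each cell with a Cxcr4 UMI also had a Csf1r UMI, so the latter shares are those of Cxcr4 alone. The shares were not thinned, and the median depth of Ccl4-led cells was 4286, 4949, 8376 and 7451 UMIs.

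A list of 30 further genes of these pathways was read in the macrophage class, with receptor partners such as Csf2rb, signalling and transcription factors, sheddases, chemokines and their receptors. Between genotypes at 1 month, 26 were measured, 6 were called higher and 0 lower, beside 7.55% of all genes called in either direction. Those called higher included the chemokines Ccl8 (5.73-fold), Ccl7 (3.87) and Ccl2 (2.91), the transcription factor Maf (1.68) and the sheddase Adam10 (1.5). The median log2 ratio of the list was -0.00013, beside 0.042 over all genes measured. At 6 months 5 of 26 were called higher and 1 lower, beside 9.29% of all genes, and the median was 0.19 beside 0.041. Those called higher included Ccl8 (38.0), Ccl7 (17.9, from 1 against 28 UMIs), Ccl12 (2.94) and the protease Dpp4 (2.66), and the sheddase Adam17 (0.653) was lower.

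Few cells set the chemokine values. Of 297 Ccl8 UMIs in CCR2-DTR at 6 months, 237 came from 2 cells of the type 2 dendritic sub-cluster, and Ccl4/Trem2-led cells had 0 in 4 of 4 libraries. Of 105 Ccl12 UMIs in Ccl4/Trem2-led cells there, 61 came from 2 cells. Ccl7 at 6 months had 24 of its 28 UMIs in 5 Mrc1-like cells. Mrc1-like cells carried 5 of 5 and 32 of 34 Ccl8 UMIs at 1 month, and this sub-cluster held 12 and 30 cells. The part of the make-up in these ratios was not tested beyond the Ccl4/Trem2-led cells.

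In Ccl4/Trem2-led cells Maf was lower at 1 month, at 0.568, opposite to its ratio over the whole class. At that age the pooled cells were 68 Ccl4-led and 22 Trem2-led in WT, against 14 and 50 in CCR2-DTR. The part of this mix in the 1-month ratios was not tested. Also called lower in Ccl4/Trem2-led cells were Cbl (0.578) at 1 month and Adam17 (0.646) and Ccr1 (0.518) at 6 months, and Ccl12 (4.05) was higher at 6 months. In these cells 1 of 20 list genes was called higher and 2 lower at 1 month, and 2 of 22 higher and 2 lower at 6 months, beside 6.58 and 5.78% of all genes called in either direction.

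With age, 3 of 23 list genes were called higher and 1 lower in WT, and 7 of 26 higher and 2 lower in CCR2-DTR. The shares of all genes were 4.39 and 8.21% called higher, and 10.9 and 19.1% in either direction. The shared calls were Csf3r, the G-CSF receptor (3.63 and 2.97), Csf2rb, the common beta chain that pairs with Csf2ra (1.66 and 1.53), and the chemokine receptor Ccr1, lower at 0.620 and 0.523. WT also had Adam17 (1.63) higher. CCR2-DTR also had Ccl8 (7.41), Ccl12 (2.77), Csf2rb2 (2.26), Dpp4 (2.18) and the lipid receptor gene Trem2 (1.58) higher and Ccl2 (0.447) lower. The medians were 0.077 and 0.35 on the log2 scale, beside -0.044 and -0.045 over all genes.

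In Ccl4/Trem2-led cells Csf3r kept its age ratio, at 4.54 (1.89 to 13.2) in WT from 6 against 35 UMIs and 2.65 (1.17 to 7.05) in CCR2-DTR. Ccr1 was lower there at 0.456 in WT and 0.215 in CCR2-DTR, from 58 against 34 and 56 against 24 UMIs. Ccl12 (5.85) and Maf (2.34) were higher in CCR2-DTR. There the pooled cells went from 14 Ccl4-led and 50 Trem2-led to 81 and 8, and the part of this mix was not tested. Csf2rb was not called in these cells, at 1.35 (0.813 to 2.27) in WT and 0.964 (0.582 to 1.63) in CCR2-DTR, and 66 of its 128 UMIs in the class in CCR2-DTR at 6 months were in type 2 dendritic cells. The 2 of 21 and 4 of 22 list genes called stand beside 9.1 and 11% of all genes.

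The genes whose level followed each member most closely were found by Pearson's r of log2(CPM + 10) over 49 sums of a class in a library. These sums share libraries and depth, so r is a description. Il34 went with the mural genes Pth1r, Foxs1, Vstm4, Notch3 and Pdgfrb (r from 0.992 to 0.995), and Cxcl12 with Ppic, Mxra7, Sparc, Ltbp4 and Col4a2 (0.953 to 0.977). Csf1r went with Lpcat2, Tbxas1, Slamf9, Plbd1 and P2ry6 (0.984 to 0.994), and Cx3cr1 with Lair1, Clec4a2, Ms4a7, Cd300c2 and C3ar1 (0.994 to 0.995). Cxcr4 went with Arhgap25, Crlf2, Inpp5d, Nrros and Map3k8 (0.926 to 0.961). The 3 genes spread over more classes had lower values: Cx3cl1 with Acer2, Depp1, Cpne8, Jup and Sod1 (0.846 to 0.889), Csf2ra with Shtn1, Hpgds, Slc9a9, P2rx4 and Tmem219 (0.837 to 0.875), and Csf1 with Pcsk5, Gstm2, Ccn4 and Plod2 (0.819 to 0.844).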

How the data were processed

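The values are the raw UMI counts that the authors deposited, and the submitters' processing notes name Cell Ranger 5.0.1 and mm10. The other deposited files are of another kind and only name barcodes and genes. The release of the gene models, and the use of intron reads, were not given in the sources used here. Filters kept barcodes of 1000 or more UMIs, 500 or more genes and 15% or less mitochondrial UMIs. Barcodes with a Scrublet score (scanpy 1.11.5) over 0.25 were removed as doublets, 373, 310, 82 and 136 of them, a limit set after seeing the data, since the automatic one marked 1 barcode in the CCR2-DTR 6-month library.

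The 4 libraries were clustered together without batch correction on 2000 variable genes, the 8 members left out, with 30 principal components, 15 neighbours and Leiden resolution 1 (leidenalg 0.10.2). Clusters were named from marker lists, so a class is RNA-based, and macrophage, stromal and endothelial cells were clustered again at resolution 0.5. Counts were summed per class and library and divided by the class total. Ratios carry exact conditional Poisson intervals at 95% and shares carry Clopper-Pearson intervals (scipy 1.17.1). Comparisons needed 50 cells of the class in each library, and a class entered the order of classes where all 4 held at least 10. In the labels, 1 library stands for each group, so intervals cover counting error only, and PCR or animal differences are not in them.

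The members and gene lists were chosen with earlier results of these data known. Named are the 8 members, the list genes called in a comparison described, and the 5 genes most alike to each member with at least 100 UMIs. Some genes that this rule names are not reported here. The call rule was tested on simulated Poisson counts for CCR2-DTR over WT macrophages at 6 months. It called 2.54% of 7709 unchanged genes, 80% of 100 genes changed 2-fold and 100% of 100 changed 4-fold. These counts follow the model that the interval assumes and hold no spread between cells, libraries or animals. The rate of false calls in the real data was thus not measured. Alternatives changed the doublet, mitochondrial and UMI filters, the resolution, the weight of cells, the total, the variable genes, the depth and the fold of a call. A further 4, on the make-up of the macrophage, endothelial and fibroblast classes, were chosen after seeing the data.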

Additional observations from a re-analysis of the deposited data

Results flagged for a closer look

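In 3 cases a ratio was called in one group and not in the other, on opposite sides of 1, and the difference between the ratios was not tested. Csf1 in beta cells had a genotype ratio of 1.17 at 1 month and 0.591 at 6 months. The same gene in the same cells had an age ratio of 1.59 in WT and 0.800 in CCR2-DTR. Cxcr4 in endothelial cells had an age ratio of 1.57 in WT and 0.971 in CCR2-DTR. These pairs share libraries, and the WT 6-month library is part of the called ratio in each.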

How the results depend on the processing

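No paired analysis was possible because each group is 1 library and the labels give no replicate numbers. Of the called ratios, macrophage Cxcr4 with age stayed called under 10 of 10 alternatives (6.49 to 8.29 in WT, 3.28 to 4.63 in CCR2-DTR), and macrophage Cx3cr1 at 6 months under 9 of 10 (0.396 to 0.529), the exception being a 2-fold rule. Endothelial Cxcl12 with age stayed called in WT under 11 of 11 (0.348 to 0.485), and in CCR2-DTR under 10 of 11 (0.385 to 0.644). With doublets kept, the pericyte and smooth muscle class had 2 called ratios in place of 0. Thinned to 2000 UMIs, endothelial cells led Csf1 in 1 library in place of 3, beta cells had 1 called ratio in place of 4, and the Csf1 age ratio of WT beta cells reversed to 0.432. The causes were not tested. Under a 2-fold rule, stricter by construction, beta cells had 0 calls in place of 4 and endothelial cells 3 in place of 7. Endothelial Csf1 with age in CCR2-DTR fell to 1.11 when thinned. Depth limits Cxcr4 at 1 month, with 16 and 32 macrophage UMIs, and all values from fibroblasts in WT at 6 months.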
